A study of Homo sapiens with 2 samples.

Results

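The genes described here encode the proteins that mark origins of DNA replication, load and start the replicative helicase, and copy DNA at the fork. The 48 members were selected by gene symbol from a list of named subunits and factors. No measured value entered this rule, but the list was chosen with earlier results of these data known. All 48 were found among the 46427 genes of the table. RNA was measured in NK92, an established human natural killer (NK) cell line, in 2 libraries, 1 per condition. The cells were kept in Artemis-Medium 1 containing 2% human serum, precultured for 18 h and divided equally over 2 dishes. The unexposed dish received no treatment, and the exposed dish received PPMX-T003, an inhibitory antibody against transferrin receptor 1 (TfR1), at 10 µg/mL for 6 h. Both libraries were stranded and made from polyadenylated RNA. According to the methods both dishes had the same further time in culture, but the table heads its columns 0 h and 6 h. The former was assigned to the unexposed dish, and any difference in harvest time cannot be told apart from the exposure. The unexposed library held 46766416 counts over 17690 detected genes, and the exposed library held 43178462 counts over 17650.

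The NK label was checked against cell type markers. All 11 NK markers had more than 3 counts in both libraries, with a summed TPM (a level corrected for transcript length and library size) of 8149 unexposed and 8769 exposed, and NKG7 was the most abundant at 3215 unexposed. Of 6 T cell markers only TRAC, at a TPM of 75 and 69, had more than 3 counts in both libraries, and CD3D, CD3G, CD8B and CD5 were at 0. Other genes used in T cells, looked up after the data were seen, were present, with a mean CPM over both libraries of 423 for CD3E, 87 for TRBC1, 45 for CD28 and 12 for CD6, so the 6 markers do not show that genes of this lineage are silent. All 4 erythroid markers were at 0. Of the B cell markers, MS4A1 was at 0, CD79A had 14 counts unexposed and 12 exposed, and PAX5 had 169 and 78. The 4 monocyte markers summed to 212 and 284 counts, mostly CD68. The B cell and monocyte counts are small beside the 226117 counts of the NK markers in the unexposed library.

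In eukaryotic cells the origin recognition complex binds origins, and CDC6 and CDT1 then load the ring of MCM2 to MCM7 onto DNA, a step called licensing that is held to once per cell cycle. In S phase the kinase CDC7 with DBF4 acts on the loaded ring, CDC45 and the GINS complex join it to form the active helicase, and polymerases alpha, delta and epsilon copy the strands with the sliding clamp PCNA. Many of these genes are known targets of E2F transcription factors, which act at entry into S phase, and several replication enzymes outside the list carry iron-sulfur clusters.

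Sequence near the transcription start was compared first, because it was not used to choose the genes. RefSeq promoters of build GRCh38.p14, from 250 bases before to 50 after a start, were matched by NCBI gene identifier for 41 of the 48 genes. None was found for RPA3, MCM5, DONSON, POLD3, GINS4, MCM4 and RPA2. E2F-type letters were defined as TTTCGCGC, TTTGGCGC, TTTCCCGC or TTTGCCGC on either strand, with overlapping matches counted. At least 1 promoter held such letters in 22 of the 41 members (53.7%), against 3.99% of 27305 genes with a promoter and 7.03% of the 10157 of these that had at least 20 counts over both libraries. Counted per promoter of the same length, the share was 41.5% of 53 promoters of members and 3.32% of all 35116. The letters were found in members of all 8 roles, among them CDC6, CDT1, GMNN, MCM2, MCM3, MCM6, MCM7, PCNA and CLSPN. A match is a description of the sequence and not evidence of binding. The CCAAT box (CCAAT on either strand) was present in 58.5% of the members against 43.3% of the genes with at least 20 counts, and the GC box (GGGCGG on either strand) in 80.5% against 73.9%. The letters TTTGAA, from the CHR element of genes used late in the cell cycle, were found in 2 of the 41 (4.88%) against 14.2%. Matches of the E2F-type letters and the GC box can overlap, and the motifs were chosen after the data were seen.

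The promoters of 6 genes are shown because they span the range found. The stretches of MCM2, MCM6 and TIPIN each show E2F-type letters on both strands in 1 run of 12 bases, CDC6 and CDT1 hold 1 match, and WDHD1, the member with the lowest fold change, holds none. Each runs 5′ to 3′ on the strand of the gene from 120 bases before the start to 30 bases after it, so that its end lies in the first exon, and capitals mark the E2F-type letters. The positions in GRCh38.p14 are chr3:127598291-127598440 on the plus strand for MCM2, chr2:135876414-135876563 on the minus strand for MCM6, chr15:66356656-66356805 on the minus strand for 1 of 2 TIPIN starts, chr17:40287759-40287908 on the plus strand for CDC6, chr16:88803669-88803818 on the plus strand for CDT1 and chr14:55027070-55027219 on the minus strand for WDHD1.
MCM2: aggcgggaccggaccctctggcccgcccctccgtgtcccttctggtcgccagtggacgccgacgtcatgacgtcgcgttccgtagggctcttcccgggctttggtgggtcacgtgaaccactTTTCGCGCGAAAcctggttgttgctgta
MCM6: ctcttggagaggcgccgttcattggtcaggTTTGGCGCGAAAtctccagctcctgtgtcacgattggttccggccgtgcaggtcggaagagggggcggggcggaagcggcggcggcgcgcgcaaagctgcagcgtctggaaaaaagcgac
TIPIN: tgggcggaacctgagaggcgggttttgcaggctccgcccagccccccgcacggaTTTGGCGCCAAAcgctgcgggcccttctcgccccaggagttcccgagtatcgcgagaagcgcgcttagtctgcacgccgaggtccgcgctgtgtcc
CDC6: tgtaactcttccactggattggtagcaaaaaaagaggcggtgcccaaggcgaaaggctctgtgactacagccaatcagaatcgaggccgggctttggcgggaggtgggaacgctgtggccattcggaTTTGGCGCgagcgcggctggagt
CDT1: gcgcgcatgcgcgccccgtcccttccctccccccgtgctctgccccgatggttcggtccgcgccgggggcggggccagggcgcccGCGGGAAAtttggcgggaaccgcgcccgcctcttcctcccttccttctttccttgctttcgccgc
WDHD1: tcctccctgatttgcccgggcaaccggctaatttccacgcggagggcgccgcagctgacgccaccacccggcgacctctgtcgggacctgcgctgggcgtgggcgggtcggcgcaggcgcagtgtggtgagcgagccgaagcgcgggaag

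NK92 cells transcribed the whole set in both libraries. All 48 members passed the filter of 20 counts summed over the libraries, and the lowest sum was 1569 for POLE2. The median TPM of the members was 74 unexposed and 71 exposed, against 16 in both libraries for the 13665 genes that passed the filter. Together the members took 367756 counts, or 0.786% of the unexposed library (95% Clopper-Pearson interval 0.784% to 0.789%), and 343905 counts, or 0.796% of the exposed library (0.794% to 0.799%). Their summed TPM ran the other way, at 6347 unexposed and 6280 exposed, on a scale with a general offset from the counts that is described below. Here and below, intervals cover counting error only, and with 1 library per condition no difference has a replicate check. In bulk RNA, fewer cells in S phase and less RNA per cell cannot be told apart.

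**Figure D1:**
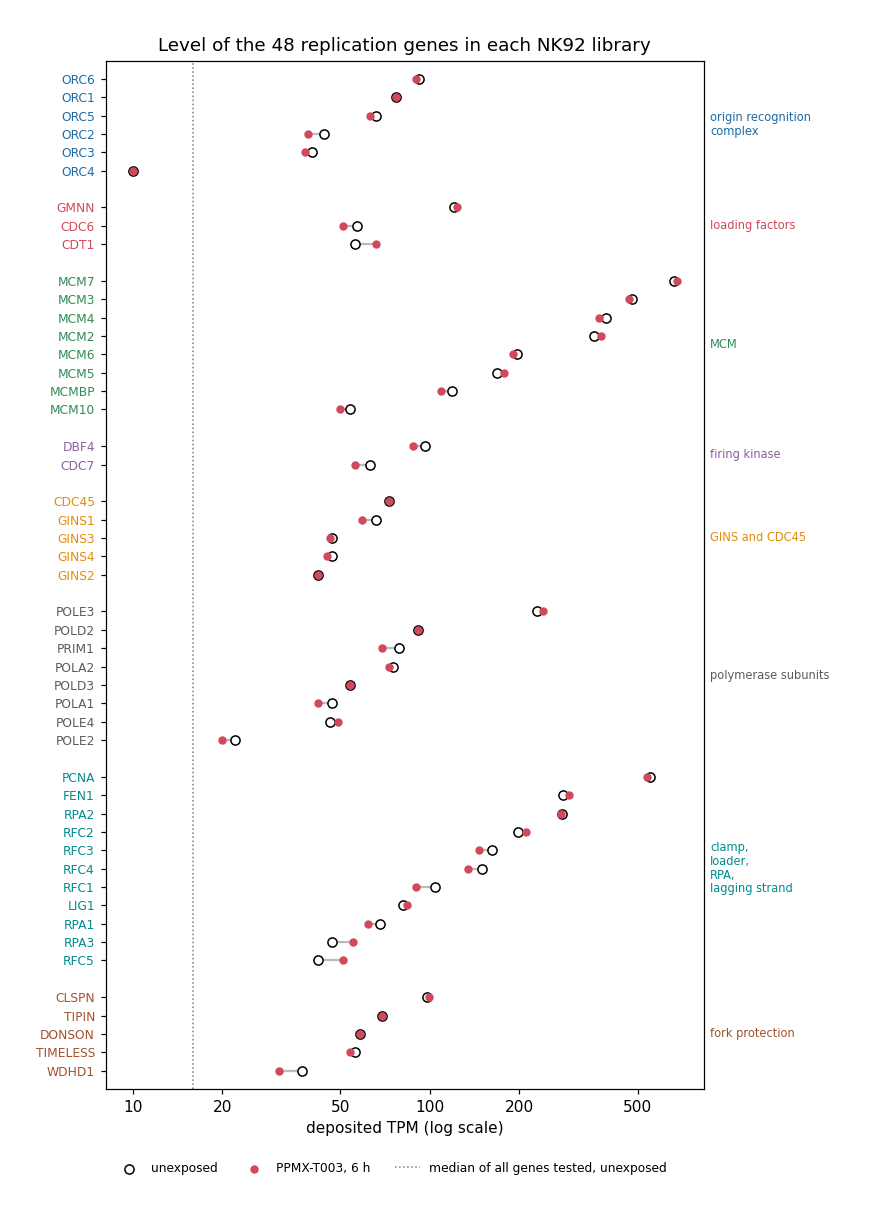
Deposited TPM of each of the 48 genes in the unexposed (open circles) and the exposed library (filled circles), by role, on a log axis. MCM7, PCNA and MCM3 are the highest of the set, ORC4 is the only member below the median of all genes tested (dotted line, 16), and the pairs of circles lie close together.

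The order of the levels was nearly the same in both libraries, with a Spearman correlation of 0.987 across the 48 genes, which are not independent replicates. MCM7 had the highest TPM, 661 unexposed and 678 exposed, and ranked 196 and 191 among the 13665 genes. PCNA followed at 552 and 538, and MCM3 at 478 and 469. At the other end ORC4 was at 10 in both libraries and POLE2 at 22 and 20. Subunits of 1 complex were not at equal levels: the 6 subunits of the MCM ring ran from 168 for MCM5 to 661 for MCM7 in the unexposed library, the 5 of the clamp loader from 42 for RFC5 to 198 for RFC2, and the 6 of the origin recognition complex from 10 for ORC4 to 92 for ORC6. The TPM were deposited as whole numbers, so those of low genes are coarse.

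Differences between the libraries were small for the replication genes as a set. Fold changes are log2 ratios of CPM, the counts relative to library size, in the exposed against the unexposed library after scaling. The median over the 48 members was 0.015 and the range -0.21 to 0.29, against a median of -0.0020 over the 13665 genes tested. On the TPM scale these medians were -0.031 and 0. That scale was offset from the counts. In 6112 genes with a TPM of 20 or more in each library, TPM minus count fold change had a median of -0.054. The negative median of the members on the TPM scale therefore does not show a turn of direction. A 1.2-fold higher level was reached by 2 members, CDT1 and RPA3, where 12.2% of all genes tested reached it, and by no member in the lower direction, where 12.4% of all genes were. The 2 calls depended on the processing. On the TPM scale CDT1 (0.23) and RPA3 (0.22) fell short and RFC5 alone passed. The TPM minus count differences of CDT1 (-0.060) and RPA3 (-0.051) were near the general offset. With the fit on GC content and length described below removed, CDT1 fell short. With a second fit on the longest transcripts 0 members passed. None of the 48 was changed 2-fold, against 1.27% of all genes higher and 1.38% lower. Many genes tested had few counts and a wide spread, so a second background was formed, after the data were seen, from the 8359 genes with at least 1000 counts, a sum that all 48 members exceed. Of these deeper genes 2.79% lay past 1.2-fold upwards and 5.11% downwards, beside 2 of 48 (4.17%) and 0 of 48 members.

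Smaller differences beyond counting error ran in both directions. The counting interval lay above 0 for 13 members (27.1%) and below 0 for 14 (29.2%), and for 21 it held 0, so that no difference was detectable at this depth. Among all genes tested 21.8% had an interval above 0 and 23.9% below, and among genes with at least 1000 counts 27.8% and 32.1%. The members' shares are close to those of the genes with at least 1000 counts. That background shares a minimum with the members and not their depth, with a median unexposed TPM of 39 against 74 in the members. The SD of the fold changes was 0.11 over the members and 0.16 over the genes with at least 1000 counts.

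**Figure D2:**
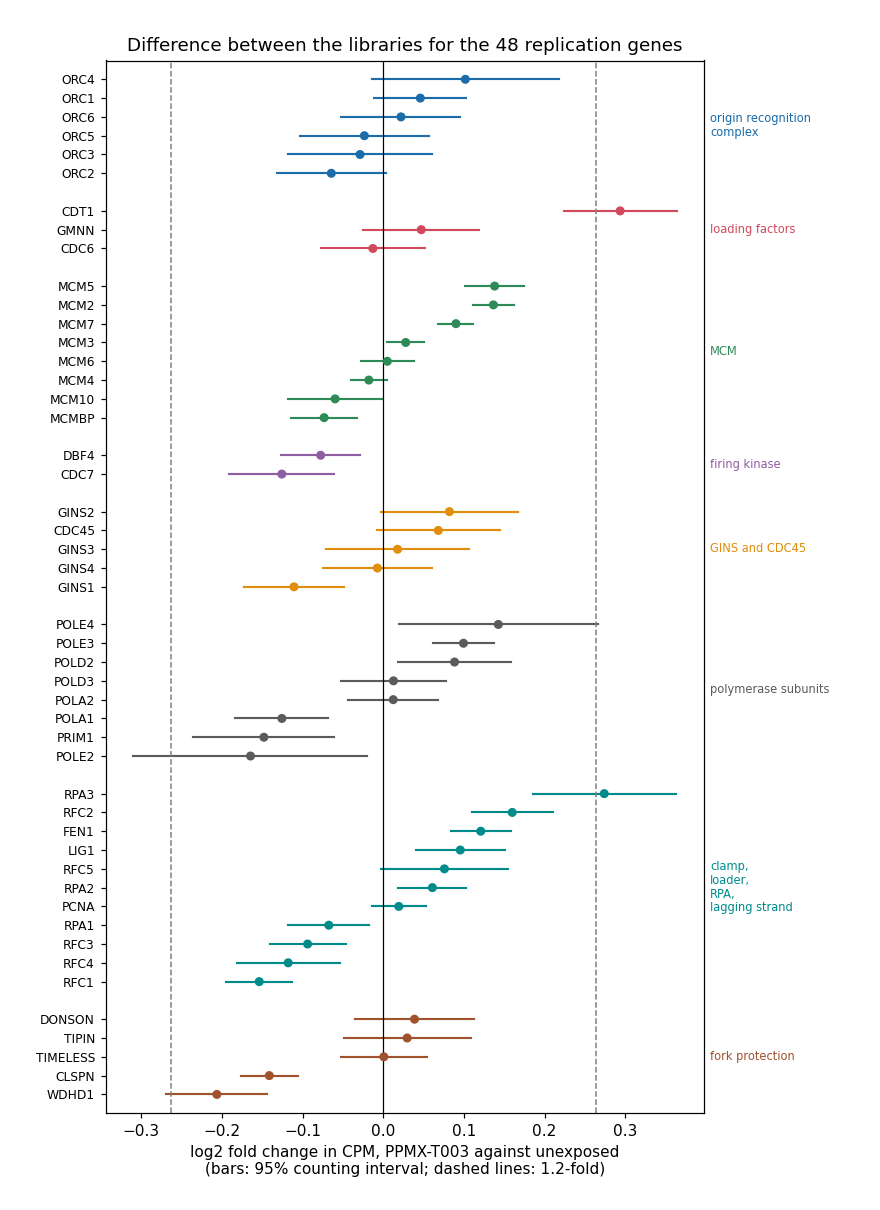
Log2 fold change of CPM, exposed against unexposed, for each of the 48 genes by role (points), with its 95% counting interval (bars) and the 1.2-fold lines (dashed). CDT1 at 0.29 and RPA3 at 0.27 lie past the upper line, and no member lies past the lower one.

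The origin recognition complex, which marks the sites where replication can start, showed no detectable difference in any subunit before the fit on GC content and length. ORC1, its largest subunit, had 5055 counts unexposed and 4811 exposed. ORC6 had 3081 and 2884 counts. Fold changes of the 6 subunits ran from -0.064 for ORC2 to 0.10 for ORC4, with a median of -0.00078. All 6 intervals held 0. The interval of ORC4, the subunit with the fewest counts (1226 and 1213), was the widest of the 6 and reached 0.22. Removing the fit put ORC4 at 0.27, past 1.2-fold, and the median of the 6 at 0.056 with 5 above 0, or 0.025 with longest transcripts fitted.

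Among the factors that load the MCM ring, CDT1 had a higher fold change than CDC6 and geminin, by an amount that depended on the fit. CDT1, which brings the ring to the origin, went from 3112 counts unexposed to 3517 exposed although the exposed library was smaller. Its TPM was 56 and 66, and its log2 fold change of 0.29 (interval 0.22 to 0.36) was the highest of the 48. The ATPase CDC6 had 4068 and 3717 counts (-0.013), and GMNN, which encodes the CDT1 inhibitor geminin, had 3202 and 3050 (0.047), both with intervals over 0. The TPM of CDC6 was 57 and 51 (-0.16 on the TPM scale), so its 2 deposited measures differed by more than the general offset. The interval of CDT1 did not overlap those of CDC6 and GMNN. The CDT1 transcript also has the highest GC content of the members, 66.0%, and its fold change was 0.15 after a fit on GC content and transcript length was removed, with GMNN at 0.082 and CDC6 at 0.015. The gap to GMNN was then about as wide as the distance from a value to its interval bound, so CDT1 is not set clear of geminin by that fit. With longest transcripts fitted CDT1 was at 0.18, GMNN at 0.016 and CDC6 at 0.038.

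The summed counts of the MCM ring were slightly higher in the exposed library relative to its size. Summed over MCM2 to MCM7, 151383 counts unexposed and 145289 exposed gave a log2 fold change of 0.058 (interval 0.048 to 0.068), while their summed TPM was 2252 and 2264. MCM2 had 25527 and 25870 counts (0.14, interval 0.11 to 0.16), MCM5 had 12048 and 12223 (0.14, 0.10 to 0.17) and MCM7 had 34474 and 33830 (0.090, 0.068 to 0.11). These 3 subunits had the highest fold changes of the ring before the fit, all with an interval above 0. With the fit on GC content and length removed they fell to 0.067, 0.043 and 0.038, and MCM6 was highest at 0.097. With longest transcripts fitted MCM5 (0.081) and MCM2 (0.071) were highest, with MCM6 at 0.058 and MCM7 at 0.016. The order within the ring therefore rests on the processing. MCM3 had 30860 and 29004 counts (0.028, 0.0046 to 0.051), MCM4 had 33093 and 30133 (-0.018, -0.040 to 0.0046) and MCM6 had 15381 and 14229 (0.0049, -0.028 to 0.038). MCM4 and MCM6 were therefore not detectably different. MCM3 was at -0.027 on the TPM scale, but its TPM minus count difference of -0.055 was close to the general offset of that scale. MCM10, which helps to activate the helicase, had 5109 and 4519 counts (-0.060), and MCMBP, which binds MCM proteins, had 10462 and 9167 (-0.073). Both intervals lay below 0, that of MCM10 barely, with a bound of -0.0018, and both genes were above 0 once the fit on GC content and length was removed, though MCMBP stayed below it, at -0.0045, when each gene's longest transcript was fitted.

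The kinase that fires licensed origins was lower in the exposed library in both subunits. CDC7, the catalytic subunit, had 4185 counts unexposed and 3536 exposed, a log2 fold change of -0.13 (interval -0.19 to -0.061). DBF4, its activator, had 7288 and 6367 counts (-0.078, -0.13 to -0.029). The transcripts of both are among the poorest in GC of the set, at 39.1% and 40.1%. With the fit removed, CDC7 was at -0.0028 and DBF4 at 0.045, and with longest transcripts fitted at -0.045 and 0.0061, so no direction is given for the kinase apart from the GC trend described below.

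The partners that turn the ring into the active helicase differed little. CDC45 had 2843 counts unexposed and 2748 exposed (0.068, interval -0.0079 to 0.14). Of the GINS subunits, GINS2, GINS3 and GINS4 had fold changes from -0.0073 to 0.082 with intervals over 0. GINS1 was lower, with 4624 and 3948 counts (-0.11, -0.17 to -0.049). After the fit on GC content and length was removed GINS1 was at -0.0086, and with longest transcripts fitted at -0.053.

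Subunits of the replicative polymerases were divided in direction. POLA1, the catalytic subunit of polymerase alpha, had 5335 counts unexposed and 4508 exposed (-0.13, interval -0.18 to -0.068). PRIM1, the catalytic subunit of the primase that works with it, had 2357 and 1961 counts (-0.15, -0.24 to -0.061), and POLA2, the regulatory subunit, 5386 and 5008 (0.012, -0.044 to 0.068). The counting intervals of POLA1 and POLA2 did not overlap, but with the fit on GC content and length removed their order turned, with POLA1 at -0.014 and POLA2 at -0.043. It did not turn when each gene's longest transcript was fitted (-0.043 and -0.025), so no difference between these subunits is claimed. PRIM1 shares exons on the same strand with NACA, which had 24481 and 22901 counts, so its division of reads is uncertain. Of the accessory subunits of polymerase epsilon, POLE3 had 11279 and 11140 counts (0.099, 0.061 to 0.14) and POLE4, its histone-fold partner, 1060 and 1079 (0.14, 0.019 to 0.27), both higher, while POLE2 had 861 and 708 (-0.16, -0.31 to -0.020). Once the fit was removed POLE2 was at -0.092, PRIM1 at -0.084, POLE3 at 0.14 and POLE4 at 0.12, and with longest transcripts fitted these were at -0.17, -0.14, 0.085 and 0.051, so the sizes varied with the fit and the signs did not. Of the accessory subunits of polymerase delta, POLD2 had 3379 and 3312 counts (0.088, 0.019 to 0.16) and POLD3 3945 and 3669 (0.013, interval over 0). POLD2 was at 0 on the TPM scale and below 0 with either fit removed (-0.027 and -0.022), so no direction is given for it.

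The clamp did not differ detectably, whereas its loader and the single-strand binding protein RPA had subunits on either side. PCNA, the sliding clamp that tethers the polymerases, had 14704 counts unexposed and 13738 exposed (0.019, interval -0.014 to 0.053). In the clamp loader, RFC1 had 10468 and 8675 counts (-0.15, -0.20 to -0.11) and RFC4 had 4321 and 3671 (-0.12, -0.18 to -0.054). RFC2, another loader subunit, had 6335 and 6525 counts (0.16, 0.11 to 0.21). The loader therefore held 1 of the highest and 2 of the lowest members, and with RFC3 at -0.094 and RFC5 at 0.076 its median was -0.094, or -0.044 with the fit removed and -0.037 with longest transcripts fitted. RFC5 was the member whose scales differed most, since its TPM went from 42 to 51 (0.27 on the TPM scale) while the interval of its counts held 0.

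In RPA, which coats single-stranded DNA, the smallest subunit RPA3 had 1976 counts unexposed and 2203 exposed. Its TPM was 47 and 55, and its fold change of 0.27 (interval 0.19 to 0.36) was the highest after that of CDT1. RPA2 was at 0.061 (0.019 to 0.10) and RPA1, the largest subunit, at -0.068 (-0.12 to -0.017), so RPA3 and RPA1 differed in direction. RPA2 was at 0.055 with the fit removed and 0.017 with longest transcripts fitted. On the TPM scale it was at -0.010, which is not set apart from the general offset of that scale. As the value with longest transcripts fitted lay below its counting interval, no direction is given for RPA2. The RPA3 transcript has a GC content of 45.3%, below the median of the members, and its fold change was 0.27 with the fit removed and 0.26 when the longest transcript of each gene was used in the fit. On the opposite strand RPA3 overlaps exons of UMAD1, which had 490 and 445 counts.

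The lagging-strand enzymes were both higher in the exposed library. FEN1, the nuclease that trims the flaps of Okazaki fragments, had 11811 counts unexposed and 11840 exposed (0.12, interval 0.084 to 0.16). LIG1, the ligase that joins the fragments, had 5335 and 5255 counts (0.095, 0.040 to 0.15). Both transcripts are rich in GC, at 53.7% and 60.2%, and both were closer to 0 after the fit was removed, FEN1 at 0.050 and LIG1 at 0.026. FEN1 shares exons on the same strand with FADS2, which had 386 and 376 counts.

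Among the proteins that protect the fork, the lowest fold change of all 48 members was that of WDHD1, which links the helicase to polymerase alpha. WDHD1 had 4613 counts unexposed and 3686 exposed, a TPM of 37 and 31, and a log2 fold change of -0.21 (interval -0.27 to -0.14). CLSPN, which encodes claspin, an adaptor for the checkpoint kinase CHK1 at the fork, had 13891 and 11612 counts (-0.14, -0.18 to -0.11). Its TPM was 98 and 99, so the lower count of CLSPN was not matched on the TPM scale. TIMELESS (0.00068), its partner TIPIN (0.030) and DONSON (0.039) had intervals over 0. After the fit was removed WDHD1 was at -0.088 and CLSPN at -0.052, both smaller but still below 0.

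Reads of some members could not be assigned with certainty. Besides PRIM1 and FEN1, exons were shared along the same strand by POLA2, POLD3, TIPIN and DONSON, so the division of their reads rests on an estimate. Without strand in the counting, which was not stated, genes on the opposite strand would add reads too. The most abundant such neighbours were SON at DONSON, with 26020 counts unexposed and 21081 exposed, and EIF4A2 at RFC4, with 20245 and 19884, whereas TPRA1 at MCM2 had 1511 and 1569 and AP4M1 at MCM7 had 354 and 358.

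Across the members the fold change went with the GC content of the transcript. Pearson's r was 0.67 and Spearman's rho 0.68 over the 48 genes, which share both libraries and are not independent. Of the 13 members with an interval above 0, 12 had a GC content above the members' median of 46.1%, RPA3 being the exception, and of the 14 with an interval below 0, 13 lay under it, with RPA1 the exception. The 24 members at or above the median had a median fold change of 0.072, and the 24 below it -0.069. The same trend ran through the genes with at least 1000 counts (r of 0.49 and rho of 0.53 over 8145 genes), and when all genes tested were put in 10 equal classes by GC content, the median went from -0.13 in the lowest class to 0.12 in the highest. Fold changes of the replication genes thus followed GC content as those of the rest of the table did. Mean CPM showed no such relation to the fold change in the members, with r of 0.020.

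Removing the fit on GC content and length left r at 0.14 in the members and moved their median to 0.029, with 33 of 48 above 0, beside 5887 of 12092 among all genes tested with a fitted value. The members highest after this fit was removed were RPA3 at 0.27 and ORC4 at 0.27, followed by CDT1 at 0.15 and POLE3 at 0.14. RPA3 thus kept its value and CDT1 lost part of it. ORC4, whose interval held 0 before, has the lowest GC content of the set, 37.7%, and it was at 0.10 before the fit. By the same fit the lowest were RFC4 at -0.12 and RFC1 at -0.12, and RFC2 was at 0.12. Fitting each gene's longest transcript left the members' median at 0.0094, kept RPA3 (0.26), ORC4 (0.25) and CDT1 (0.18) highest and put POLE2 (-0.17), RFC4 (-0.15) and PRIM1 (-0.14) lowest, with RFC1 at -0.069 and RFC2 at 0.070. The clamp loader thus held subunits of opposite direction without a fit and with either one, but which members were lowest depended on the fit.

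Members with and without E2F-type letters in their promoters did not separate. The median fold change was 0.015 in the 22 with such letters (range -0.16 to 0.29) and 0.00068 in the 19 without (-0.21 to 0.16). Their median TPM in the unexposed library was 72 and 77. Of the 6 promoters shown, those with the letters belong to genes from -0.013 for CDC6 to 0.29 for CDT1.

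The further replication genes, a list of 48 other factors, had a median and a division of directions close to those of the members before the fit. All 48 were tested, the median was 0.011, and 28 lay above and 20 below 0, as in the members. With the fit removed the further genes had a median of -0.010 with 22 of 48 above 0, and the members 0.029 with 33 of 48. With longest transcripts fitted these medians were -0.013 and 0.0094. The difference between the lists was not tested. At least 1.2-fold lower were 3 genes, where 12.4% of all genes tested and 5.11% of those with at least 1000 counts were. These were HLTF, a fork remodeller, with 6729 counts unexposed and 4723 exposed (-0.39, interval -0.45 to -0.34), MMS22L, which acts at stalled forks, with 3048 and 2233 (-0.33, -0.41 to -0.25), and RIF1, which controls replication timing, with 14704 and 11027 (-0.30, -0.33 to -0.26). After the fit was removed none of the 48 was 1.2-fold lower, with HLTF at -0.26, just short of it, MMS22L at -0.21 and RIF1 at -0.12. The 1 gene at least 1.2-fold higher was RPA4, with 19 and 32 counts (0.80, interval 0.0064 to 1.77) and a TPM of 1 in both libraries. In that direction 12.2% of all genes tested and 2.79% of those with at least 1000 counts passed. By the bound of the interval nearest to 0 the highest were ASF1B, a histone chaperone, with 5178 and 5325 counts (0.16), UHRF1, which maintains DNA methylation at the fork, with 7319 and 7410 (0.14), and RNASEH2C, a subunit of an RNase H, with 3043 and 3124 (0.16). Once the fit was removed these were at 0.045, 0.086 and 0.063. The interval lay above 0 for 11 genes of this list and below 0 for 13, against 21.8% and 23.9% of all genes tested and 27.8% and 32.1% of those with at least 1000 counts.

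Of 4 replication proteins that carry iron-sulfur clusters, POLD1, the catalytic subunit of polymerase delta, had 6697 counts unexposed and 6722 exposed (0.12, interval 0.074 to 0.17), and POLE, that of polymerase epsilon, 3628 and 3247 (-0.043, -0.11 to 0.026). PRIM2, the large primase subunit, had 2163 and 1859 counts (-0.10, -0.19 to -0.011), and the nuclease and helicase DNA2 4425 and 3509 (-0.22, -0.28 to -0.15). With the fit removed all 4 lay below 0, POLD1 at -0.029, POLE at -0.041, PRIM2 at -0.035 and DNA2 at -0.084, but a fit on the longest transcript of each gene put POLD1 at 0.011. Among the markers of proliferation, MKI67 had 39836 and 30871 counts (-0.25, -0.27 to -0.23) and TOP2A 48982 and 37397 (-0.27, -0.29 to -0.25), whereas CCNB1 had 10125 and 9210 (-0.019, interval over 0). MKI67 and TOP2A were lower by more than any of the 48 members before the fit. With it removed they were at -0.15 and -0.22. With longest transcripts fitted both were at -0.151, and the members POLE2 (-0.170) and RFC4 (-0.154) were lower than either. Their part in the differences above was not tested.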

How the data were processed

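Read counts per gene were deposited by the authors as whole numbers with a comma from 1000 upwards, which was removed before use. FPKM and TPM are also deposited, rounded to whole numbers, and served as a score for levels per length. The authors trimmed reads with Trimmomatic 0.38, mapped them with HISAT2 2.2.0 and counted them with StringTie 2.1.3b, and their processing notes name edgeR 3.17 and hg38. The strand setting of the counting is not given in the sources used here.

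Libraries were scaled with TMM, a trimmed mean of log ratios (30% of log ratios and 5% of levels trimmed, factors 1.001 and 0.9993), and counts were given as log2 CPM with a prior count of 2. The filter kept genes whose counts in both libraries added to 20 or more. The exact 95% Clopper-Pearson interval on the exposed part of a gene's reads was turned into a log2 ratio. With 1 library per condition no dispersion could be estimated and no p-value is given. Calculations used Python 3.11.15 (statsmodels 0.14.6, scipy 1.17.1, pandas 2.3.3 and numpy 2.4.6), and the interval was tested on simulated data.

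GC content and length were medians over protein-coding transcripts in GENCODE release 29, another annotation than that of the counts, and 88.5% of the tested genes and all 48 members had both. Short transcripts were not left out, so some fitted lengths were low, such as 546 bases for ORC2, 579 for TOP2A and 725.5 for RFC1. Where this fit and that on longest transcripts differ, neither is preferred. A robust fit of the fold changes on GC content, its square and log2 length used 9926 genes with at least 200 counts. By the same annotation 6 members have exons in common with a neighbour on their own strand, and 18 overlap exons on the opposite strand. Of 10 listed pseudogene copies of members, 2 had more than 3 counts, at most 0.205% of the parent gene.

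The members and lists were chosen with earlier results of these data known. Counts and intervals are given for MCM2 to MCM7 and for the 8 members highest and 8 lowest by the interval bound nearest to 0, and for others named for their role after their values were seen. The background of at least 1000 counts, the square of GC content, the fit on longest transcripts, the opposite-strand overlaps and the promoter motifs were chosen after the data were seen. As alternatives, other scalings, prior counts and filters, TPM with a pseudocount of 1, means, the fits, and leaving out members that share exons were tried. The result of 1 cell type marker is not reported here.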

Additional observations from a re-analysis of the deposited data

How the results depend on the processing

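No paired analysis was possible because there was 1 library per condition, which also leaves no replicate to omit. Under the 3 other scalings and both other prior counts the value of each of the 48 members stayed within its counting interval and no member with an interval off 0 changed sign. The number of members with an interval above 0 was 12 with median-of-ratios and 17 with upper-quartile scaling in place of 13, and below 0 it was 16 and 13 in place of 14, so which direction was more frequent depended on the scaling. The filters of 1 and 200 counts left the counts of members unchanged. With TPM, 3 of the 27 members whose interval lay off 0 changed sign: MCM3 (-0.0274), RPA2 (-0.0104) and CLSPN (0.0145). The median of the MCM group became -0.0396 and that of the clamp, loader, RPA and lagging-strand group -0.0104, and 1 member, RFC5, was 1.2-fold higher. In 6112 genes whose TPM was 20 or more in each library, the TPM fold change minus that of the counts had a median of -0.054. This minimum was set after the data were seen. RFC5 (0.20), CLSPN (0.16) and CDC6 (-0.14) lay outside the central 95% of that difference (-0.13 to 0.035). MCM3 (-0.055) and RPA2 (-0.071) lay inside it, so their change of sign is not set apart from the general offset. The group medians on the TPM scale carry the same offset.

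With the fit on GC content and length removed, 4 changed sign: MCM10 (0.0125), MCMBP (0.00166), DBF4 (0.0452) and POLD2 (-0.0265). The firing kinase had a median of 0.0212, and the further replication genes held 2 that were 1.2-fold higher and 0 lower. The count of members 1.2-fold higher was again 2, but these were RPA3 and ORC4. Shares of all genes past 1.2-fold were not counted with either fit removed, so these counts have no background beside them. With the longest transcripts in the fit, added after the data were seen, MCM10 (0.0069), DBF4 (0.0061) and POLD2 (-0.0221) changed sign, the firing kinase had a median of -0.0196, and 0 members were 1.2-fold higher. Without members that share exons, the median of the polymerase subunits was 0.0883 and that of the fork protection group -0.141, which follows from the fewer genes left. The causes of the other changes were not tested. Counting error is small at this depth, and differences between dishes cannot be told apart from the exposure.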
